A study of Mus musculus with 35 samples.

Results

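The genes described here are 36 genes of homologous recombination and of the Fanconi anemia pathway, chosen by their annotated symbols from the 18194 genes that a probe set of the mouse array measured on its own. Of the 36, 34 had such a probe set. A gene was tested where its mean reached log2 4.40 (the limit for low values) in at least 1 group. Rad51b stayed below it, with group means of log2 3.68 to 3.96, so that 33 were tested among 14135 genes in all. Rbbp8 and Xrcc2 were not analysed here. The rule for the genes is their names, not a threshold on a measured value.

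The arrays measured mRNA of primary mouse embryonic fibroblasts (MEFs), mixed fibroblast cultures of C57BL6/J embryos, after the addition of fresh medium or of medium with methyl methanesulfonate (MMS) at 40 μg/mL. MMS transfers methyl groups to DNA and to other cell constituents. Cells in fresh medium (control) were harvested after 0, 1, 8, 24 and 72 h, those in MMS after 1, 8, 24 and 72 h. Each group had 4 arrays, and only MMS at 72 h had 3. The labels give embryos of day 15.5, cells expanded for 2 passages and 5% oxygen, while the methods of the study give a younger embryo and more passages, and state that head and liver were removed. All groups share this strain, and the cells are a primary population and not a clone. The methods speak of replicate experiments without saying whether the arrays of a group came from separate embryo cultures, so p-values measure the spread between these arrays, which may be technical. The values are deposited log2 signals (RMA), so a log2 difference of 1 is a doubling, and they do not allow the level of one gene to be set against that of another.

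Homologous recombination repairs broken or stalled replication forks by copying the sister chromatid. The MRE11-RAD50-NBN complex and EXO1 trim the broken end, BRCA1, PALB2 and BRCA2 prepare the bared strand for pairing, and RAD54 and the BLM helicase act on the paired strands. In the Fanconi pathway a core complex marks the FANCD2-FANCI pair with ubiquitin at blocked forks. The ATR-CHEK1 and ATM-CHEK2 kinases signal from the same structures, and many genes of these pathways are known to be transcribed mostly in S and G2 phase through E2F and related factors. In bulk samples fewer cells of a phase or type cannot be told apart from less RNA per cell.

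Because many of these genes moved together over time, the promoter windows of RefSeq (250 bases before to 50 after a start, build GRCm38.p6) were searched. There were 31 windows for 28 of the 33 genes tested. The E2F letters TTTCGCGC, TTTGGCGC, TTTCCCGC or TTTGGCGG, on either strand, were in 8 of the 31 windows (25.8%), against 3.86% of 14396 windows of all genes tested and 2.37% of all 32851 windows. CCAAT, the letters bound by NF-Y, was in 61.3% of the members' windows and in 37.1% of those of the genes tested, and TTTGAA, the cell cycle homology region, in 6.45% and 12.3%. The genes with the E2F letters were Bard1, Brca2, Chek1, Chek2, Fancg, Rad51c and Rmi1. The windows of Chek2, Brca2 and Chek1 are shown as examples of genes with the letters that were called after MMS at 24 or 72 h. Bard1, Fancg and Rad51c were called too, and Rmi1 was called at neither time. After MMS, Chek2 was called higher at 24 h, and Brca2 and Chek1 were called lower at 72 h. The window of Brca1 is shown since this gene moved most at 24 h and has none of the letters. Chek2 lies at chr5:110839733-110840032 (plus strand), Brca2 at chr5:150522371-150522670 (plus strand), Chek1 at chr9:36726609-36726908 (minus strand) and Brca1 at chr11:101551906-101552205 (minus strand). Each is written 5′ to 3′ on the strand of the gene, with E2F letters in capitals, which begin 152 bases before the start in Chek2, 168 before it in Brca2 and 39 after it in Chek1.
Chek2: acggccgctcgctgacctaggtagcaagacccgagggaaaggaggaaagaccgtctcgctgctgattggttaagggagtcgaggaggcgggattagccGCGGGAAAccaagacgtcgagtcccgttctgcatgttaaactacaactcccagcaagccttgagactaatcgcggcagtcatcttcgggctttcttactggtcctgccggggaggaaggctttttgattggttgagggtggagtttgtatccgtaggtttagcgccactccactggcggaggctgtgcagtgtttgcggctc
Brca2: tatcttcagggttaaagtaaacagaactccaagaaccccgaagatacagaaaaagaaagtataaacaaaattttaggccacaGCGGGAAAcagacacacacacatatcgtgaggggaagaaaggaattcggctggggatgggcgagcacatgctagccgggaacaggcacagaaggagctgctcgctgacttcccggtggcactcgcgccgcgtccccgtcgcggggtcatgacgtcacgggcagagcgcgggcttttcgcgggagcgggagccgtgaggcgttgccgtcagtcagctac
Chek1: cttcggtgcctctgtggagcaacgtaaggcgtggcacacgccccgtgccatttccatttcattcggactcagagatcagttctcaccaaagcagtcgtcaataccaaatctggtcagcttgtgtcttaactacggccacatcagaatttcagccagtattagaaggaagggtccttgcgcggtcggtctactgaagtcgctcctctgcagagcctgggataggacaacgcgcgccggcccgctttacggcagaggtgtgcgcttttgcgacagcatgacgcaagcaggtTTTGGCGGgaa
Brca1: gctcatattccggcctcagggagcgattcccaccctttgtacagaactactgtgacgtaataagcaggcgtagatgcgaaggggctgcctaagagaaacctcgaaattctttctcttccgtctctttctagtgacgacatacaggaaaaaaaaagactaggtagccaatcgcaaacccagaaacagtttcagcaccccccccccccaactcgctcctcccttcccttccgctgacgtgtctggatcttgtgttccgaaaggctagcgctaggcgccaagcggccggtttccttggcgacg
A match is a description of the letters in this window. Of the 14 genes with a window that were higher after MMS at 24 h, 3 held the E2F letters, and of the 13 not called at 24 h, 4 did. Of the 12 that were lower at 72 h 3 held them, and of the 16 not called 4 did.

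Some features of the arrays bear on what follows. Replicate 3 of control 0 h and of MMS at 1, 24 and 72 h held intestinal transcripts: 19, 16, 17 and 12 of 19 intestinal markers lay more than 1 log2 unit above the other arrays of their group, and their mean level was 11.17, 7.25, 9.19 and 5.95, against 4.19 to 4.72 on the other arrays of these groups. Control 1 h replicate 3 and control 24 h replicate 4 had 7 of 19 above that limit. Control and MMS arrays of 8 h had high scores on the first principal component (44.5% of the variance), 47.3 to 50.9 for control and 78.8 to 83.3 for MMS against at most 3.9 elsewhere. All 15 macrophage markers tested were higher in control cells at 8 h than at 0 h, by a median of 3.72 (log2), and their mean level was 8.25 to 8.41 in control and 7.73 to 7.93 in MMS-treated cells at 8 h. Elsewhere that mean was 4.43 to 6.07. At 24 h it was 4.43 to 4.51 in control and 4.81 to 5.36 in MMS-treated cells, without overlap. Fibroblast markers were present in all groups (11 or 12 of 12 above the limit), and 9 of 12 were lower after MMS at 8 h, 11 of 12 at 24 h and 5 of 12 at 72 h. The part of these transcripts in the results at 8 and 24 h was not tested, and what sets the 8 h arrays apart cannot be told apart from the time itself.

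The MMS effect on these genes changed with time (the heat map of log2 differences). The comparisons come from a single limma fit to the 35 arrays, and a gene was called at a Benjamini-Hochberg adjusted p under 0.05 over all genes tested. At 1 h, 0 of the 33 genes were called, where 0.361% of all genes were higher and 0.0283% lower. At an unadjusted p under 0.05, 3 were lower (Exo1, Fancf and Atm). By a two-group test of the compared arrays alone 0 were called after adjustment, and with array weights 2 were lower. The shares of all genes on those terms are not given here. At 8 h, 4 were higher (12.1%, against 28.7% of all genes) and 13 lower (39.4%, against 25.0%), and their median log2 difference was -0.11, against 0.06 over all genes. At 24 h, 18 were higher (54.5%, against 25.0% of all genes) and 2 lower (6.06%, against 19.4%), and the median was 0.26, against 0.01. At 72 h, 0 were higher (10.1% of all genes were) and 14 were lower (42.4%, against 10.4%), with a median of -0.23, against -0.01. None of the 33 was higher at an unadjusted p or by the two-group test either. In this fit the share of genes called higher was thus above the background at 24 h. The share called lower was above it at 8 and 72 h. With arrays centred on their median, Nbn, Rad54l, Fancc and Fanci lost their calls at 8 h. Rad50, Bard1, Palb2, Brip1, Fancg and Atr then lost theirs at 24 h, and Brca2 and Chek1 theirs at 72 h. Bard1 at 8 h and Rad51c at 24 h gained a call. The share of all genes called in that setting is not given here. Without the 4 arrays with intestinal transcripts Bard1 (log2 0.18, adjusted p = 0.16) and Atr (0.21, adjusted p = 0.086) at 24 h and Atm (-0.36, adjusted p = 0.079) at 72 h lost their calls. With the arrays of the compared groups alone in a two-group test, 15 were higher at 24 h and 8 lower at 72 h after adjustment. The share of all genes called by that test is not given here, so these counts have no background beside them.

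**Figure D1:**
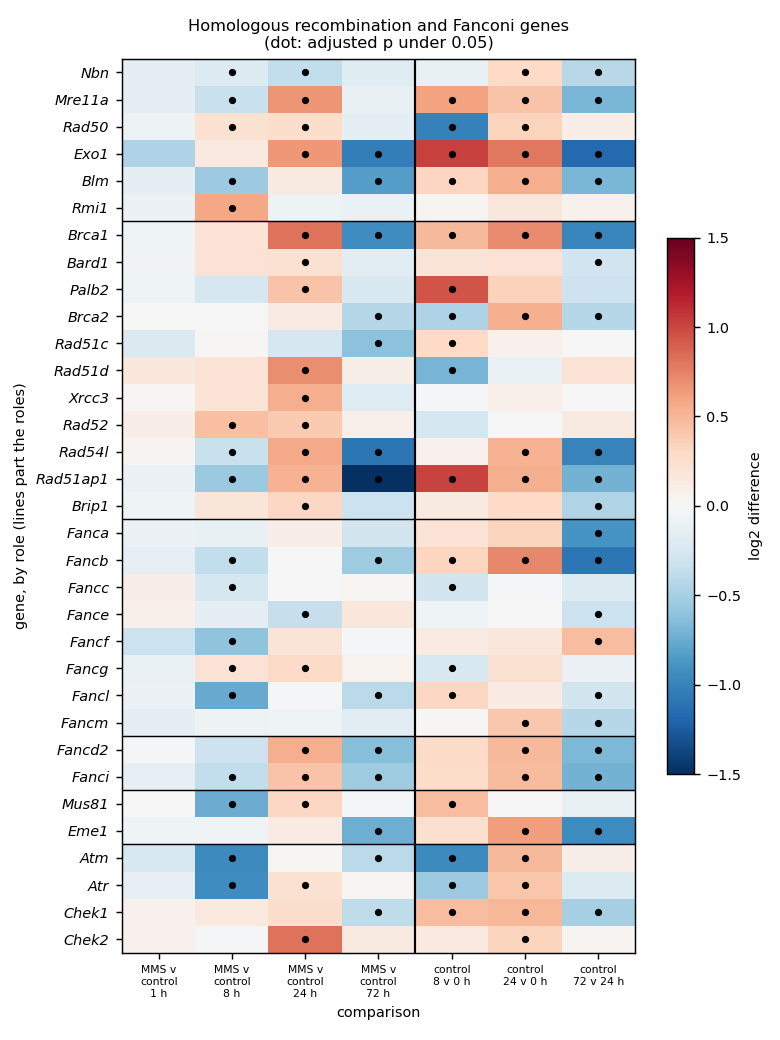
Log2 difference (color) of the 33 genes tested, in rows by role, for MMS against control at 1, 8, 24 and 72 h and for control cells over time, in columns. A dot marks an adjusted p under 0.05: 18 genes were higher at 24 h and 14 were lower at 72 h after MMS.

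Control cells themselves moved after the medium change. At 1 h against 0 h, Mre11a (log2 difference 0.28 ± 0.09 SE) and Mus81 (0.30 ± 0.08) were higher and 0 lower, against 7.22% and 4.38% of all genes. At an unadjusted p 2 were lower, by the two-group test after adjustment 0, and with array weights 4. The shares of all genes on those terms are not given here. The 2 higher calls became 0 by the two-group test, with only these groups in the model, and without control 0 h replicate 1 or 3, and 7 with array weights. At 8 h against 0 h, 11 were higher and 7 lower, against 35.8% and 23.6% of all genes, which is close to the background in both directions. Exo1 was 2.02-fold and Rad51ap1 2.02-fold higher, whereas Rad50 was 2.01-fold and Atm 1.94-fold lower. At 24 h against 0 h, 18 of 33 genes were higher, against 9.12% of all genes, and 0 were lower, against 2.06%. None was lower at an unadjusted p or by the two-group test after adjustment, and 1 was lower with array weights. The count of 18 was 6 by the two-group test and 4 with a fold of at least 1.5. The largest were Exo1 (1.73-fold), Fancb (1.65-fold), Brca1 (1.64-fold) and Eme1 (1.55-fold). At 72 h against 24 h, 19 were lower, against 18.8% of all genes, and Fancf alone was higher (1.38-fold), against 18.4%. Exo1 was 2.26-fold, Fancb 2.12-fold, Rad54l 2.0-fold and Brca1 1.97-fold lower. At 72 h against 0 h, 6 were higher and 7 lower, against 21.8% and 16.3% of all genes, led by Fancf (1.55-fold higher) and Fanca (1.47-fold lower). The MMS comparisons at 24 and 72 h are set against this course of untreated cells.

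Set against cells before the medium change, and not matched in time, MMS-treated cells had 10 genes higher and 11 lower at 8 h (44.4% and 28.7% of all genes). At 24 h 27 stood above and 1 below the 0 h level (29.7% and 19.8%), and at 72 h 4 above and 16 below (20.6% and 14.5%). The lower gene at 24 h was Fance. At 24 h Brca1 stood 2.89-fold, Exo1 2.71-fold, Chek2 2.20-fold and Mre11a and Rad54l 2.13-fold above control cells at 0 h, and at 72 h Rad51ap1 stood 3.20-fold, Rad54l 2.96-fold and Exo1 2.69-fold below them. The 4 genes above the 0 h level at 72 h were Fancf, Chek2, Rad50 and Atr. The mean of the 33 genes on each array, relative to that of control at 0 h, was 0.28 to 0.37 in control and 0.49 to 0.66 in MMS-treated cells at 24 h, and -0.09 to 0.02 and -0.46 to -0.32 at 72 h, so that the arrays of the treatments did not overlap at either time.

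Among the genes of end trimming and joint dissolution, 6 were tested. After MMS 2 rose and 3 fell at 8 h, 3 rose and 1 (Nbn) fell at 24 h, and 2 fell at 72 h. Of all genes, 28.7% rose and 25.0% fell at 8 h, 25.0% rose and 19.4% fell at 24 h, and 10.4% fell at 72 h. Mre11a, the nuclease of the MRN complex, had log2 levels of 8.53, 8.13, 8.27 and 8.37 in control and 7.91, 8.08, 7.90 and 8.08 in MMS-treated cells at 8 h. At 24 h it had 7.95, 8.25, 8.18 and 8.22 in control and 8.82, 8.78, 8.88 and 8.77 after MMS. It was thus below every control array at 8 h and above every one at 24 h, with log2 differences of -0.33 ± 0.09 (adjusted p = 0.0019) and 0.66 ± 0.09 (1.58-fold, adjusted p = 2.3e-07). At 72 h its difference was -0.11 ± 0.09 (adjusted p = 0.53). A second probe set of Mre11a, with a highest group mean of log2 5.02, was not called at 8 or 24 h (-0.06 and -0.18).

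The other MRN subunits shared its call at 1 of these times each, Nbn at 8 h and Rad50 at 24 h. Rad50, the ATPase that tethers DNA ends, had 7.39, 7.36, 7.46 and 6.97 in control and 7.69, 7.53, 7.46 and 7.44 after MMS at 8 h, and 8.67, 8.71, 8.59 and 8.57 against 9.10, 8.78, 8.78 and 8.92 at 24 h. Its arrays overlapped at 8 h, and it was higher by 0.23 ± 0.09 (adjusted p = 0.029) at 8 h and 0.26 ± 0.09 (adjusted p = 0.019) at 24 h. The call at 8 h was lost without control replicate 4 or MMS replicate 1 and that at 24 h without control replicate 4 or MMS replicate 1 (log2 0.12 to 0.18 and 0.19 to 0.24). Nbn, the subunit that recruits ATM, had 8.43, 8.54, 8.51 and 8.71 in control and 8.16, 8.19, 8.19 and 8.16 in MMS-treated cells at 24 h. All 4 MMS arrays lay below all controls, and Nbn was 1.29-fold lower (log2 -0.37 ± 0.08, adjusted p = 1.8e-04), against the direction of most of these genes. At 8 h Nbn was lower by 0.21 ± 0.08 on the log2 scale, a call lost without control replicate 1 or 2 or MMS replicate 1 (log2 -0.19 to -0.14).

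Exo1, the exonuclease of long-range resection, was among the genes that turned. Its log2 levels at 24 h were 6.77, 6.82, 6.94 and 6.77 in control and 7.42, 7.51, 7.40 and 7.58 after MMS, a 1.57-fold higher level (log2 0.65 ± 0.13, adjusted p = 1.2e-04). At 72 h they were 5.63, 5.54, 5.78 and 5.65 in control and 4.54, 4.31 and 4.98 after MMS, 2.06-fold lower (log2 -1.04 ± 0.14, adjusted p = 1.3e-06). The groups did not overlap at either time, and at 8 h, when Exo1 was high in both, they differed by 0.15 ± 0.13 (adjusted p = 0.37). A second probe set of Exo1 was higher at 24 h (0.76) and not called at 72 h (-0.51, adjusted p = 0.091).

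Blm, the helicase that undoes recombination joints, and Rmi1, its partner in joint dissolution, went apart. Blm had 6.58, 6.84, 6.69 and 6.76 in control and 6.21, 6.49, 5.97 and 5.99 after MMS at 8 h, and 6.28, 6.27, 6.26 and 6.19 against 5.25, 5.37 and 5.65 at 72 h. It was lower at both times without overlap, by 1.47-fold (adjusted p = 8.2e-05) and 1.77-fold (adjusted p = 3.2e-06). Rmi1 had 7.79, 7.98, 8.08 and 7.93 in control and 8.27, 8.76, 8.32 and 8.76 after MMS at 8 h, and every MMS array lay above every control. Rmi1 was 1.5-fold higher (log2 0.58 ± 0.09, adjusted p = 2.2e-06), the largest rise of the 33 genes at that time, and was not called at 24 h (-0.08) or 72 h (-0.10). Of its 4 other probe sets above the limit, 1 was called higher at 8 h (0.47) and 3 were not called (-0.24 to 0.08).

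Among the BRCA complexes and the helpers of strand exchange, 11 were tested. After MMS 1 was higher and 2 lower at 8 h, 9 higher at 24 h, and 5 lower at 72 h. Of all genes, 28.7% were higher and 25.0% lower at 8 h, 25.0% higher at 24 h and 10.4% lower at 72 h. Brca1, a ubiquitin ligase subunit that favors repair by recombination, had log2 levels of 7.22, 7.08, 7.01 and 7.02 in control and 8.05, 7.94, 7.68 and 7.93 after MMS at 24 h. At 72 h it had 6.27, 5.81, 6.22 and 6.10 in control and 4.95, 4.85 and 5.72 after MMS. Every MMS array thus lay above the controls at 24 h and below them at 72 h. Brca1 was 1.77-fold higher at 24 h (log2 0.82 ± 0.13, adjusted p = 4.8e-06) and 1.90-fold lower at 72 h (log2 -0.93 ± 0.14, adjusted p = 8.0e-06). At 8 h the difference was 0.20 ± 0.13 (adjusted p = 0.20). Of its other probe sets, 2 were called in the same directions at both times (0.95 and 0.72 at 24 h, -0.49 and -0.53 at 72 h).

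The partners of BRCA1 moved less. Bard1, its ligase partner, had 4.47, 4.45, 4.36 and 4.27 in control and 4.82, 4.16, 4.77 and 4.74 after MMS at 24 h, with replicate 2 below the controls, and was higher by 0.23 ± 0.09 (adjusted p = 0.044). Its levels were near the limit for low values, and the call was lost without any of 5 arrays (control replicates 3 and 4, MMS replicates 1, 3 and 4, log2 0.17 to 0.22). Palb2, which links BRCA1 to BRCA2, had 5.06, 4.71, 5.03 and 4.87 against 5.74, 5.19, 4.86 and 5.59, which overlap, and was higher by 0.43 ± 0.15 (adjusted p = 0.023). That call was lost without control replicate 2 or 4 or MMS replicate 1 or 4 (log2 0.29 to 0.41). The helicase gene Brip1, also near the limit, was higher by 0.31 ± 0.13 with overlap, and lost its call without any of 6 arrays (control replicates 1, 2 and 3, MMS replicates 1, 2 and 4, log2 0.19 to 0.34). Brca2, the partner of PALB2 in strand exchange, did not pass the test at 24 h (0.12 ± 0.13, adjusted p = 0.49). At 72 h it had 6.71, 6.47, 6.51 and 6.34 in control and 6.09, 6.05 and 6.08 after MMS, 1.35-fold lower (adjusted p = 0.023), a call lost without control replicate 1 or any MMS array (log2 -0.44 to -0.36).

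Rad51ap1, Rad54l, Rad52, Rad51c, Rad51d and Xrcc3 act in strand pairing and exchange. Rad51ap1, which stimulates strand pairing, had log2 levels of 7.59, 7.65, 7.55 and 7.85 in control and 6.97, 7.02, 7.25 and 7.14 after MMS at 8 h. It had 7.19, 7.10, 7.12 and 7.30 against 7.62, 7.57, 7.79 and 7.82 at 24 h, and 6.66, 6.28, 6.54 and 6.39 against 5.15, 4.28 and 5.48 at 72 h. The treatments did not overlap at any of these times, with Rad51ap1 1.48-fold lower at 8 h (adjusted p = 0.0013), 1.43-fold higher at 24 h (adjusted p = 0.0035) and 2.83-fold lower at 72 h (log2 -1.5 ± 0.15, adjusted p = 1.0e-08). This was the largest MMS difference among the 33 genes at any time. Its 3 other probe sets were all lower at 72 h (-0.48 to -1.54), were not called at 24 h (0.15 to 0.35), and 1 of them was lower at 8 h.

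Rad54l, a motor protein of strand exchange, took the same 3 steps. Its levels were 6.68, 6.69, 6.63 and 6.99 in control and 6.48, 6.57, 6.27 and 6.37 after MMS at 8 h, and 7.27, 7.01, 7.11 and 7.40 against 7.73, 7.91, 7.50 and 7.93 at 24 h. At 72 h they were 6.29, 6.11, 5.97 and 6.42 against 4.99, 4.97 and 5.38. No time showed overlap, and Rad54l was 1.25-fold lower at 8 h (adjusted p = 0.015), 1.49-fold higher at 24 h (adjusted p = 9.1e-05) and 2.12-fold lower at 72 h (adjusted p = 4.5e-08). The call at 8 h was lost without control replicate 4 or MMS replicate 3 (log2 -0.27 and -0.24).

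Rad51d, Xrcc3 and Rad51c went different ways. Rad51d had 6.98, 6.96, 6.57 and 7.02 in control and 7.74, 7.63, 7.30 and 7.66 after MMS at 24 h, without overlap, and was 1.63-fold higher (log2 0.70 ± 0.12, adjusted p = 1.7e-05). At 72 h it did not pass the test (0.09 ± 0.13). Another probe set of Rad51d was higher at 24 h (0.42) and at 8 h (0.37), where Rad51d was not called (0.20). Further ones were not called at 24 h (0.04 and 0.25). Xrcc3 had 4.92, 5.00, 4.92 and 4.94 against 5.92, 5.22, 5.31 and 5.48 at 24 h and was 1.45-fold higher (adjusted p = 0.0049). Rad51c, in contrast, had 5.97, 5.91, 5.87 and 6.05 in control and 5.13, 5.64 and 5.27 after MMS at 72 h, 1.52-fold lower without overlap (adjusted p = 3.4e-04), and its difference at 24 h was -0.25 ± 0.11 (adjusted p = 0.075). The other probe set of Rad51c was not called at 72 h (-0.29). Rad52, which anneals single strands, had 5.80, 5.65, 5.90 and 5.97 against 6.36, 6.18, 6.17 and 6.43 at 8 h, and 6.11, 6.10, 5.89 and 6.25 against 6.70, 6.44, 6.39 and 6.37 at 24 h. Every MMS array lay above the controls at both times, and Rad52 was 1.37-fold (adjusted p = 0.0013) and 1.31-fold higher (adjusted p = 0.0068). A second probe set of Rad52 was also higher at both times (0.38 and 0.24).

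**Figure D2:**
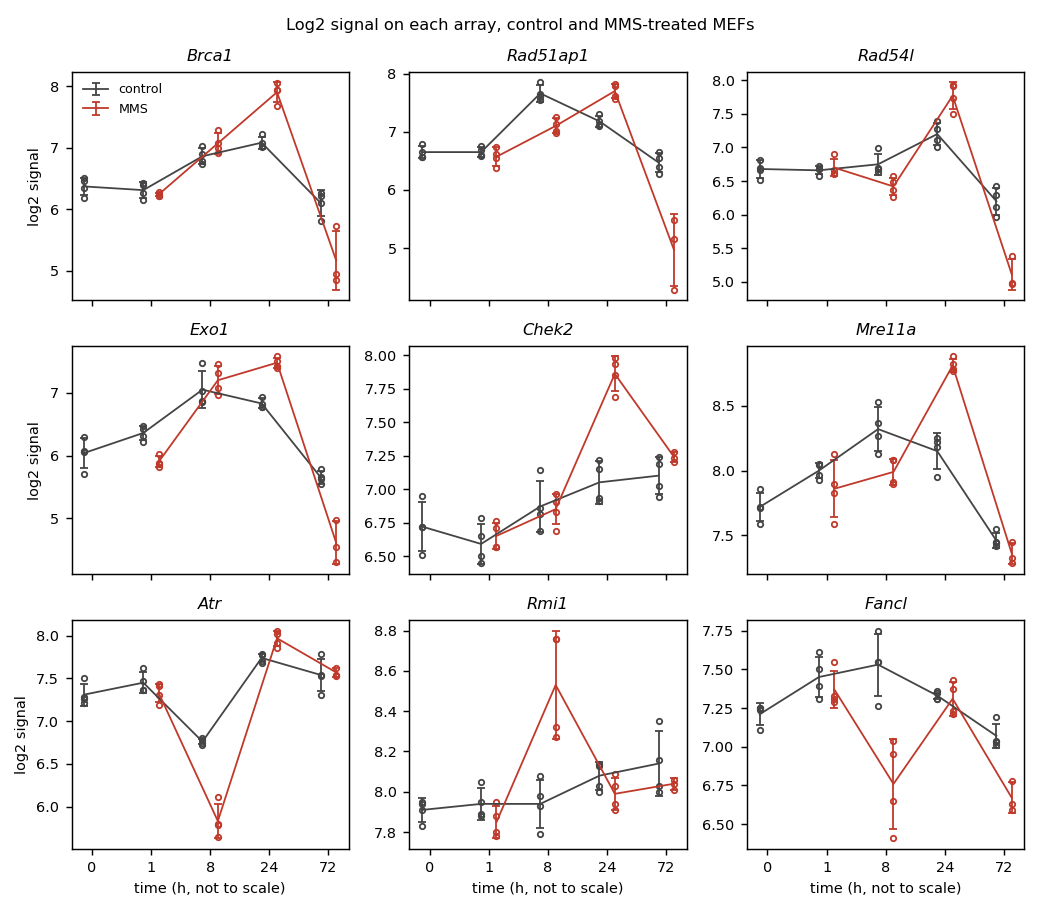
Log2 signal (y axis) of 9 genes on each array by time (x axis, h, not to scale) in control (grey) and MMS-treated (red) cells. Circles are arrays, lines join group means and bars are SDs. Brca1, Rad51ap1, Rad54l and Exo1 lay above control at 24 h and below it at 72 h, while Chek2 and Mre11a were higher at 24 h and near control at 72 h.

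Of the Fanconi core complex 8 genes were tested, of which 1 was higher (Fancg) and 1 lower (Fance) at 24 h, where 25.0% of all genes were higher and 19.4% lower. At 8 h 1 was higher and 4 lower, against 28.7% and 25.0% of all genes, and at 72 h 2 were lower, against 10.4%. Fancl, the ubiquitin ligase of the complex, had log2 levels of 7.26, 7.75, 7.55 and 7.55 in control and 6.65, 6.95, 7.04 and 6.41 after MMS at 8 h, without overlap, and was 1.70-fold lower (log2 -0.76 ± 0.10, adjusted p = 2.0e-07). At 72 h it had 7.19, 7.03, 7.04 and 7.01 against 6.63, 6.59 and 6.78 and was 1.32-fold lower (adjusted p = 0.0094), a call lost without MMS replicate 2 (log2 -0.36). At 24 h the difference was -0.02 ± 0.10. Fancb, on the X chromosome, was lower at 8 h (1.29-fold, with overlap) and at 72 h (1.45-fold, adjusted p = 0.0013), where it had 5.95, 5.55, 5.71 and 5.84 against 5.21, 5.16 and 5.32. The other probe set of Fancb was called at neither time (-0.06 and -0.08). Fancf, an adaptor of the complex, had 7.36, 7.52, 7.63 and 7.74 in control and 7.25, 6.66, 6.94 and 7.01 after MMS at 8 h, 1.51-fold lower (adjusted p = 5.3e-05), and a second probe set at a lower level was not called (0.10). That second probe set was higher at 24 h (0.49, adjusted p = 0.03), where Fancf was not called (0.19).

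The remaining core genes moved by small amounts. Fance, which binds FANCD2, had 7.07, 6.83, 6.50 and 6.59 in control and 6.44, 6.50, 6.39 and 6.33 after MMS at 24 h, which overlap, and was 1.26-fold lower (adjusted p = 0.010), a call lost without control replicate 1 (log2 -0.23). A second probe set of Fance was also lower (-0.37). Fancg had 5.67, 5.66, 5.49 and 5.78 in control and 5.93, 5.90, 5.95 and 5.98 after MMS at 24 h and was 1.22-fold higher (adjusted p = 0.011), a call lost without control replicate 3 (0.24). At 8 h Fancg was higher by 0.22 ± 0.09 with overlap (adjusted p = 0.045), a call lost without any of 5 arrays (control replicates 1 and 3, MMS replicates 1, 2 and 3, log2 0.15 to 0.20). For Fancg another probe set was higher at 24 h (0.35) and not called at 8 h (0.03). Fancc was lower by 0.26 ± 0.09 at 8 h, a call lost without control replicate 2 (log2 -0.23). Its 2 other probe sets were not called at 8 h (-0.01 and 0.09). The first of these was lower at 24 h (-0.43, adjusted p = 0.0049), where Fancc was not called (0.00). Fanca and Fancm, the scaffold and the translocase, were not called at any MMS time (log2 differences of -0.28 to 0.10 and -0.16 to -0.06 at 8, 24 and 72 h). Another probe set of Fanca, at a lower level, was higher at 8 h (0.32, adjusted p = 0.038). Fancf levels of control cells were instead higher at 72 h than at 24 h.

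The FANCD2-FANCI pair, the substrate of the core complex, moved in the same direction at 24 and 72 h. Fancd2 had 5.94, 6.39, 6.26 and 5.77 in control and 6.64, 6.63, 6.40 and 6.85 after MMS at 24 h, and 5.69, 5.28, 5.57 and 5.13 against 4.76, 4.76 and 4.83 at 72 h. It was 1.45-fold higher (adjusted p = 0.0014) and then 1.56-fold lower (adjusted p = 0.0015), with no overlap at either time, though a second probe set was called only at 72 h (-0.42, against 0.15 at 24 h). Fanci had 6.53, 6.72, 6.67 and 6.95 against 7.08, 7.27, 6.93 and 7.30 at 24 h, where 1 MMS array fell within the controls, and 6.13, 5.90, 5.84 and 6.17 against 5.31, 5.40 and 5.74 at 72 h. It was 1.34-fold higher (adjusted p = 0.0065) and then 1.44-fold lower (adjusted p = 0.0048). At 8 h Fanci was 1.29-fold lower with overlap, a call lost without control replicate 1 or MMS replicate 2 (log2 -0.31 and -0.26), and Fancd2 was not called (-0.31 ± 0.13, adjusted p = 0.054).

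Mus81 and Eme1 encode the subunits of 1 nuclease that cuts joined and forked DNA, and they differed in time. Mus81 had 7.59, 7.64, 7.66 and 7.77 in control and 6.92, 6.74, 6.95 and 7.09 after MMS at 8 h, and 7.23, 7.32, 7.13 and 7.21 against 7.56, 7.63, 7.35 and 7.60 at 24 h. With no overlap it was 1.67-fold lower at 8 h (log2 -0.74 ± 0.08, adjusted p = 3.3e-09) and 1.24-fold higher at 24 h (adjusted p = 0.0016), and at 72 h its difference was -0.02 ± 0.09. The other probe set of Mus81 was called in the same directions (-0.99 and 0.58). Eme1 differed by -0.07 at 8 h and 0.12 at 24 h, neither called, and at 72 h had 6.11, 5.92, 5.95 and 5.92 in control against 4.99, 5.11 and 5.62, a 1.66-fold lower level (adjusted p = 0.0010).

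The upstream and downstream kinases of the checkpoint also parted. Atm, the kinase recruited to breaks, had log2 levels of 7.21, 7.01, 7.36 and 7.27 in control and 6.26, 6.45, 6.11 and 6.24 after MMS at 8 h, 1.93-fold lower (log2 -0.95 ± 0.11, adjusted p = 1.8e-08). Atr, the kinase of stalled forks, had 6.72, 6.74, 6.80 and 6.78 against 5.78, 6.11, 5.64 and 5.79, 1.90-fold lower (log2 -0.93 ± 0.09, adjusted p = 2.9e-10). These were the largest falls at 8 h, with no overlap, and both genes were already lower in control cells at 8 h than at 0 h (8.05 to 8.37 for Atm and 7.21 to 7.50 for Atr at 0 h). Second probe sets of Atm and of Atr were lower at 8 h too (-0.92 and -0.36).

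By 24 h Atm did not differ between treatments (0.03 ± 0.11, adjusted p = 0.85), and Atr was 1.17-fold higher, with 7.79, 7.68, 7.70 and 7.77 in control and 7.86, 7.92, 8.02 and 8.06 after MMS, without overlap (adjusted p = 0.034). The call of Atr was lost without any of 4 arrays (control replicates 2 and 3, MMS replicates 3 and 4, log2 0.20 to 0.22), and a second probe set showed no call (adjusted p = 0.99). At 72 h Atm was 1.32-fold lower with overlap (adjusted p = 0.017), a call lost without control replicate 4 or MMS replicate 2 or 3 (log2 -0.36 to -0.31). Chek2, the kinase activated by ATM, had 7.22, 7.15, 6.93 and 6.91 in control and 7.93, 7.98, 7.69 and 7.85 after MMS at 24 h, with every MMS array above the controls, and was 1.75-fold higher (log2 0.81 ± 0.10, adjusted p = 6.9e-08). At 8 h it differed by -0.03 ± 0.10 and at 72 h by 0.14 ± 0.11. Chek1, the kinase activated by ATR, was not called at 24 h (0.26 ± 0.12, adjusted p = 0.094), where 2 of its other probe sets were called higher (0.40 and 0.44). At 72 h it had 6.92, 6.53, 6.43 and 6.43 in control and 6.02, 6.12 and 6.45 after MMS, 1.30-fold lower with overlap (adjusted p = 0.042), a call lost without control replicate 1 or 2 or MMS replicate 1 or 2 (log2 -0.39 to -0.27). Of those other probe sets, 1 was also lower at 72 h (-0.41) and 1 was not called (-0.09).

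The change of the MMS effect between times was tested itself. Between 1 and 8 h, 4 genes had a higher effect and 6 a lower one, against 21.3% and 20.0% of all genes. Between 8 and 24 h, 16 had a higher effect, against 23.3% of all genes, and Rmi1 alone a lower one (log2 -0.66 ± 0.13), against 22.2%. Atr (1.16 ± 0.13), Rad51ap1 (1.08 ± 0.20), Mus81 (1.06 ± 0.11) and Mre11a (1.00 ± 0.12) led the higher ones. Between 24 and 72 h, 21 had a lower effect, against 16.5% of all genes, and Fance alone a higher one (0.50 ± 0.16), against 12.4%. Rad51ap1 (-2.02 ± 0.21, adjusted p = 9.5e-09), Brca1 (-1.75 ± 0.19), Exo1 (-1.69 ± 0.19) and Rad54l (-1.65 ± 0.16) led the lower ones. These differences share the 24 h or 8 h arrays and are not independent of each other.

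The calls at 24 and 72 h sort the 33 genes into classes (the plot of the 24 h against the 72 h difference). Exo1, Brca1, Rad54l, Rad51ap1, Fancd2 and Fanci were higher at 24 h and lower at 72 h. Of these, Brca1, Fancd2 and Fanci lost the call at 72 h by the two-group test with adjustment. Fanci lost the call at 24 h after a second quantile normalization, and Fancd2 lost it with the mean of all probe sets. Another 12 were higher at 24 h and not called at 72 h, among them Chek2, Rad51d and Mre11a. A further 8 were lower at 72 h without a call at 24 h: Blm, Brca2, Rad51c, Fancb, Fancl, Eme1, Atm and Chek1. The other 7 were Nbn, Fance, Rmi1, Fanca, Fancc, Fancf and Fancm. All 6 of the first class were also higher in control cells at 24 h than at 0 h and lower in control cells at 72 h than at 24 h. Outside that class, Blm, Brca2, Fancb, Eme1, Chek1, Mre11a, Nbn and Fancm had the same calls in control cells. Of the 18 genes higher at 24 h after MMS, 8 were not called in control cells at 24 h against 0 h (Bard1, Palb2, Rad51d, Xrcc3, Rad52, Brip1, Fancg and Mus81). These comparisons share the control arrays of 24 h.

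**Figure D3:**
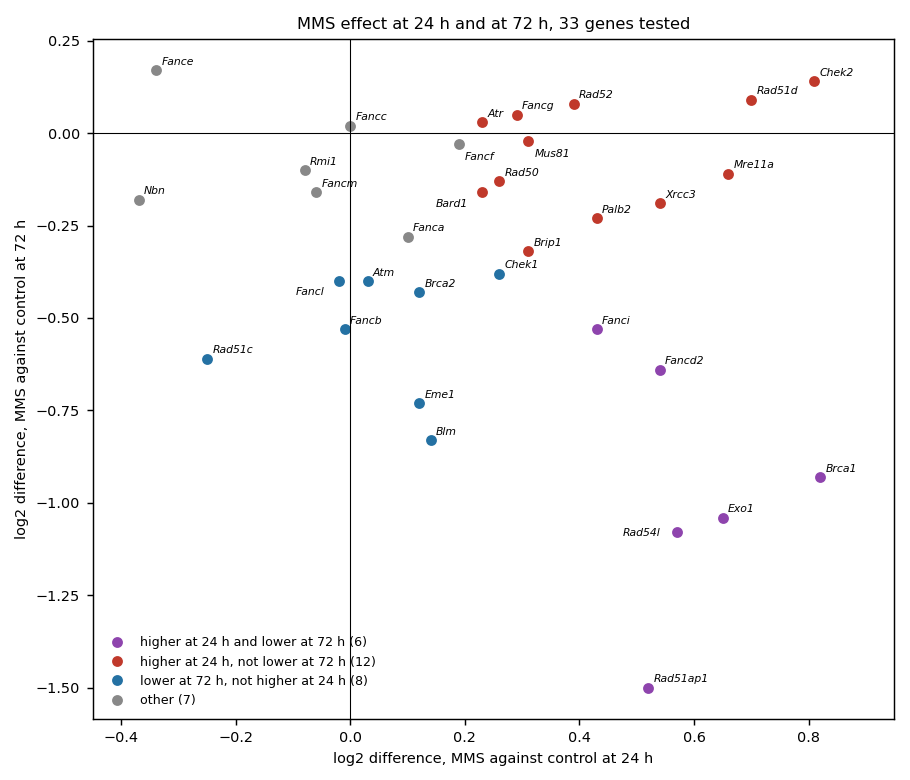
Log2 difference of MMS against control at 24 h (x axis) and at 72 h (y axis) for the 33 genes tested, colored by the calls. Exo1, Brca1, Rad54l, Rad51ap1, Fancd2 and Fanci lie at the lower right, with differences of 0.43 to 0.82 at 24 h and -1.5 to -0.53 at 72 h.

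At 72 h replicate 3, the array with intestinal transcripts, was the highest of the 3 MMS arrays in 11 of the 14 genes called lower, and the part of those transcripts in its level was not tested. Without the 4 arrays with such transcripts the log2 differences at 72 h were -1.75 for Rad51ap1, -1.23 for Exo1, -1.21 for Rad54l, -1.20 for Brca1, -0.94 for Blm and -0.93 for Eme1, each larger in size than with all arrays. The differences of Rad51c (-0.57) and Atm (-0.36) were smaller in size than with all arrays (-0.61 and -0.4), and Atm lost its call. At 24 h those of Brca1, Chek2, Rad51d and Mre11a were 0.89, 0.87, 0.80 and 0.64. Apart from that of Atm, the calls of these genes did not change. Over the members called, second probe sets of the same symbol shared the call in 6 of 17 cases at 8 h, in 9 of 17 at 24 h and in 8 of 12 at 72 h, while 0 had the opposite call.

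Other genes of the same and of neighboring pathways were read as lists beside the members. Among 23 other homologous recombination and Fanconi genes, 9 rose and 7 fell after MMS at 8 h, 13 rose against 2 that fell at 24 h, and 9 fell at 72 h, with medians of -0.01, 0.38 and -0.18. Helq, a repair helicase, was 2.25-fold higher at 8 h and 1.86-fold at 24 h. Ube2t, the ubiquitin-conjugating enzyme of the Fanconi core complex, was 1.65-fold higher at 24 h and 1.82-fold lower at 72 h, and Fignl1, an ATPase of homologous recombination, was 2.39-fold lower at 72 h. Among 19 checkpoint partners, 10 were higher and 7 lower at 8 h, 12 higher at 24 h and 6 lower at 72 h, with medians of 0.31, 0.39 and -0.16. Trp53bp1, which favors end joining, was 1.92-fold higher at 24 h, and Clspn, the adaptor between ATR and CHEK1, was 1.5-fold higher at 24 h and 2.23-fold lower at 72 h. Among 13 end joining genes, 3 were higher and 5 lower at 8 h, 7 higher at 24 h and 3 lower at 72 h, with medians of -0.06, 0.32 and 0.02. At 8 h Prkdc, the kinase of end joining, was 2.33-fold lower and Lig4, its ligase, 1.91-fold higher. The shares of all genes called were those given for the members (28.7% higher and 25.0% lower at 8 h, 25.0% and 19.4% at 24 h, 10.1% and 10.4% at 72 h).

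The cell cycle lists give the frame for these values (the plot of gene lists). Of 36 DNA replication genes tested, 12 rose and 10 fell after MMS at 8 h, 30 rose and 1 fell at 24 h, and 1 rose and 29 fell at 72 h, with medians of 0.01, 0.45 and -0.66. Of 33 mitosis genes, 1 was higher and 31 lower at 8 h (median -1.07), 9 higher and 3 lower at 24 h (0.07), and 31 lower at 72 h (-1.15). The medians of the members were -0.11, 0.26 and -0.23. In control cells at 24 h against 0 h, 33 replication and 32 mitosis genes were higher, against 9.12% of all genes. At 72 h against 24 h 34 and 32 were lower, against 18.8%. The lists moved beside the members at these times, and their part in the members' results was not tested.

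**Figure D4:**
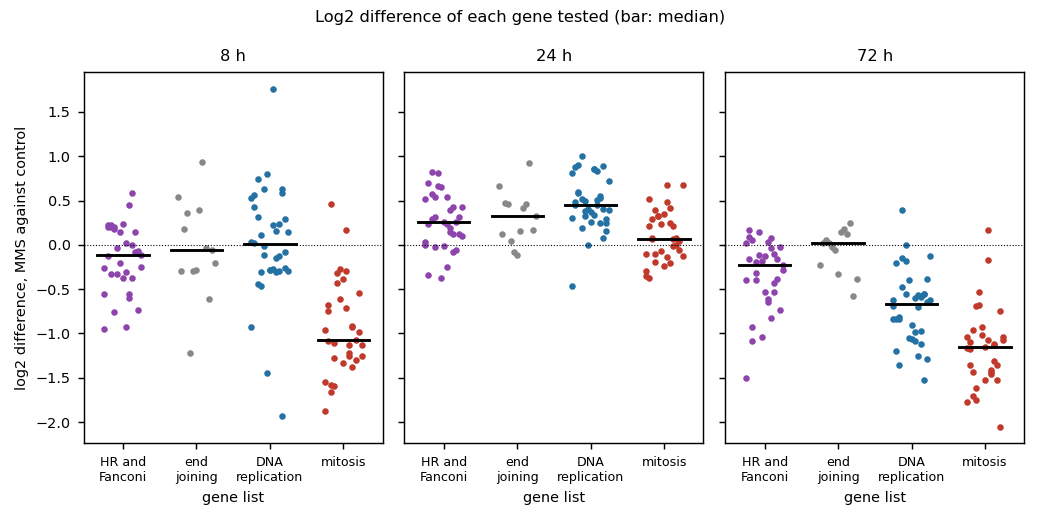
Log2 difference of MMS against control (y axis) for each gene tested of 4 lists (x axis) at 8, 24 and 72 h. Points are genes and bars medians: at 24 h the medians were 0.26 for homologous recombination and Fanconi genes, 0.32 for end joining, 0.45 for DNA replication and 0.07 for mitosis, and at 72 h -0.23, 0.02, -0.66 and -1.15.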

How the data were processed

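Affymetrix mouse arrays of MEFs were analysed from the table of log2 values that the authors deposited, which they made with RMA (background correction, quantile normalization and summary per probe set), in a version not given in the sources used here. The table holds 45101 probe sets on 35 arrays, with array medians of log2 4.98 to 5.09, while the methods name a smaller array. Of the probe sets, 34958 carried 1 gene symbol, 932 several and 9211 none in the platform annotation. Of several probe sets that carried the same single symbol, that with the highest mean stood for the gene, which left 18194 genes, and 14135 were tested whose mean reached log2 4.40 (the 40th percentile) in at least 1 group. The number of arrays limits the precision. The 4th replicate of MMS at 72 h was not analysed here.

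Groups were taken from the labels and compared with limma 3.58.1 (R 4.3.3) in 1 model with 26 residual degrees of freedom, with Benjamini-Hochberg adjustment over all genes tested within each comparison, and calls at an adjusted p under 0.05. A two-group test with a fold limit of 2, which the methods name for other cells, other filters, normalizations, summaries of probe sets, array weights, a replicate block and the removal of each array were tried as alternatives. The script was tested on simulated data. All members are accounted for, and values on every array are given for those with the largest called differences in each direction and for others the text turns on. Of the other lists, called genes with the largest differences are named. The members and lists were chosen with earlier results of these data known. Promoter windows are those of RefSeq (GRCm38.p6).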

Additional observations from a re-analysis of the deposited data

Results flagged for a closer look

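Single arrays far from the other 3 of their group by Dixon's criterion were found in 18 of 264 groups of 4 arrays, and chance marks about 1 in 20 groups. At 0 and 1 h these were Rad50 in control 0 h replicate 3 (log2 8.09, others 8.36 to 8.38) and MMS 1 h replicate 4 (8.40), Palb2 in MMS 1 h replicate 1 (4.03), Fancf in MMS 1 h replicate 3 (6.79), and Fancl in control 0 h replicate 3 (7.11) and MMS 1 h replicate 1 (7.55). At 8 h they were Xrcc3 in MMS replicate 3 (5.35), Rad54l in control replicate 4 (6.99, others 6.63 to 6.69), Fance in MMS replicate 2 (6.27), Fancg in MMS replicate 4 (5.20) and Chek1 in control replicate 1 (6.73). At 24 h they were Bard1 in MMS replicate 2 (4.16, others 4.74 to 4.82) and Rad51d in control replicate 3 (6.57). At 72 h only the control group had 4 arrays, with Palb2 (4.37), Xrcc3 (5.22) and Fanca (6.18) in replicate 2 and Fancf (8.40) and Eme1 (6.11) in replicate 1.

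The MMS effect differed between times by limma's test of the difference (adjusted over all genes) in 10 genes between 1 and 8 h, 17 between 8 and 24 h and 22 between 24 and 72 h. Between 1 and 8 h the log2 effect was higher by 0.67 for Rmi1, 0.61 for Exo1 and 0.32 for both Fancg and Rad50, and the changes of Atr, Mus81, Atm and Fancl were -0.81, -0.74, -0.71 and -0.68. Between 8 and 24 h it was higher by 1.16 for Atr, 1.08 for Rad51ap1, 1.06 for Mus81 and 1.00 for Mre11a, and changed by -0.66 for Rmi1. Between 24 and 72 h it was higher by 0.50 for Fance, and changed by -2.02 for Rad51ap1, -1.75 for Brca1, -1.69 for Exo1 and -1.65 for Rad54l. Adjusted p-values of these genes ran from 4.0e-09 (Rad54l, 24 to 72 h) to 0.046 (Fancg, 1 to 8 h).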

How the results depend on the processing

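Of the single differences between MMS and control under the alternatives, 2834 kept their direction and side of the threshold, 222 lost a call, 30 gained one and 0 reversed. Counts are members called higher or lower, and those not given stayed within 1.5 times the first count. The shares of all genes called under each alternative are not given here, so these counts are not set against a background. Where limits of fold or a stricter p are set, fewer calls follow by construction, and for the other alternatives the cause was not tested. With 3 arrays at 72 h after MMS and signals of Bard1 and Brip1 near the limit for low values, small differences of these genes are the least certain.

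With arrays centred on their median, control cells at 1 h against 0 h had 4 higher, the effect between 8 and 24 h was lower in 2 and that between 24 and 72 h in 12. A second quantile normalization, and likewise leaving out the 8 h arrays, gave 4 higher in control cells at 1 h. With no filter 2 members had a higher effect between 1 and 8 h. With the mean of all probe sets, control cells at 1 h had 1 higher and 2 lower, control cells at 72 h against 24 h had 2 higher, the effect was higher in 2 between 1 and 8 h and lower in 2 between 8 and 24 h, and MMS at 24 h against control at 0 h had 2 lower. With only the groups compared in the model, MMS at 1 h had 1 lower, control cells at 1 h had 0 higher and MMS at 72 h against control at 0 h had 2 higher. With array weights, MMS at 1 h had 2 lower, MMS at 8 h 2 higher, control cells at 1 h 7 higher and 4 lower, at 24 h 1 lower, at 72 h 13 lower and at 72 h against 24 h 2 higher, and MMS at 24 h against 0 h had 2 lower.

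By the two-group test with adjustment, MMS at 24 h had 1 lower and at 72 h 8 lower. Control cells had 0 higher at 1 h, 7 higher at 8 h, 6 higher at 24 h and 3 lower at 72 h against 0 h, and MMS at 72 h against 0 h had 2 higher. By the two-group test with an unadjusted p and a fold over 2, MMS at 8 and 24 h had 0 higher and 0 lower, and at 72 h 3 lower. Control cells had 0 higher at 1 h, at 8 h 2 higher, 1 lower, at 24 h 0 higher, at 72 h 0 higher, 0 lower, and at 72 h against 24 h 0 higher, 3 lower. Against control at 0 h, MMS had 1 higher and 2 lower at 8 h, while at 24 h 7 were higher, 0 lower, and at 72 h 0 higher, 5 lower.

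With a fold of at least 1.5 in addition, MMS at 8 h had 0 higher, 5 lower, at 24 h 5 higher, 0 lower, and at 72 h 8 lower. Control cells had 0 higher at 1 h, at 8 h 4 higher, 3 lower, at 24 h 4 higher, at 72 h 2 higher, 0 lower, and at 72 h against 24 h 0 higher, 11 lower. The effect was higher in 2 between 1 and 8 h and in 0 between 24 and 72 h, and against 0 h MMS had at 8 h 5 higher, 3 lower, at 24 h 0 lower, and at 72 h 1 higher, 10 lower. At an adjusted p under 0.01, MMS at 8 h had 2 higher and at 24 h 1 lower, control cells had 0 higher at 1 h, 7 higher at 8 h and 3 lower at 72 h, the effect was higher in 2 between 1 and 8 h, higher in 0 and lower in 12 between 24 and 72 h, and MMS at 72 h against 0 h had 2 higher.

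With each array left out in turn, MMS had 2 to 5 higher at 8 h and 1 to 3 lower at 24 h, control cells had 0 to 5 higher at 1 h and 3 to 8 lower at 72 h against 0 h, the effect was higher in 2 to 4 between 1 and 8 h and in 0 to 1 between 24 and 72 h, and MMS against 0 h had 0 to 2 lower at 24 h and 2 to 4 higher at 72 h. Whether the replicate numbers pair the arrays was not settled. Same-numbered control and MMS arrays deviated with correlations of -0.26 to 0.31 (0.09 to 0.31 at 1 h). Those of differently numbered arrays, which would be the standard for these values, are not given here. With the replicate block, 17 were higher at 24 h and 13 lower at 72 h (Brip1 and Chek1 lost their calls), and 4 were higher and 13 lower at 8 h.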
